A study of Mus musculus with 18 samples.

Results

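The genes Prkch, Kiz, Rhbg, Spsb4 and Ak8 are 5 of the 20661 autosomal protein-coding genes of the gene table used here, and none of them encodes a transcription factor. They were chosen by the difference between knockout (KO) and wild-type (WT) counts of H3K27me3 at these genes, in the same libraries that are described here. Their KO and WT values are therefore a description, with errors and no test. An interval of the mark reached 8010 of the 20661 genes in at least 1 library and 2491 genes in all 12 libraries. Prkch, Kiz, Rhbg and Ak8 were among the 2491, and Spsb4 had an interval in 9 libraries.

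The assay was bulk CUT&Tag, in which an antibody to H3K27me3 directs a transposase to the marked chromatin. The tissue was the mouse medial ganglionic eminence, or MGE, at the embryonic stages E12.5 and E15.5. The MGE is a proliferative zone of the ventral forebrain that gives rise to many inhibitory interneurons. Males that were Nkx2.1-CreC/C;Ezh2F/+ had been crossed to Ai9F/F;Ezh2F/+ females, so by this cross every embryo carries the Nkx2.1 Cre and the Ai9 reporter, WT embryos included. The KO label reads Nkx2.1-CreC/+;Ezh2;Ai9F/+ and the other label reads WT, with 3 libraries of each at each stage. Cre acts only in cells of the Nkx2.1 lineage, so other cells of the dissected tissue keep Ezh2. E12.5 samples are the whole MGE, and E15.5 samples are reporter-positive MGE dissected under fluorescence. Tissue of embryos that shared a genotype was pooled where needed, per the labels' protocols, and 6 heterozygous samples were not analysed here. Because the libraries are bulk, more marked cells and more mark per cell cannot be told apart.

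Ezh2 is the main methyltransferase of Polycomb repressive complex 2, which places methyl groups on lysine 27 of histone H3. The trimethylated form marks repressed genes, is densest over CpG-rich starts of developmental regulators, and can spread into domains that cover whole genes and their neighbours. When Ezh2 is lost, its paralog Ezh1 and methyl marks carried over from earlier divisions can leave part of the mark in place. The 5 genes have unrelated roles. Prkch encodes protein kinase C eta, a kinase that diacylglycerol activates without calcium. Kiz encodes kizuna, a centrosomal protein that helps hold the spindle pole together during mitosis. Rhbg encodes an ammonium transporter of the Rh glycoprotein family, best known from kidney and liver. Spsb4 encodes an adaptor whose SPRY domain binds substrates and whose SOCS box recruits a ubiquitin ligase. Ak8 encodes an adenylate kinase, one of the enzymes that exchange phosphate between adenine nucleotides.

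Promoter sequences are shown for the members with a promoter entry whose start lay under the mark, since the position of the mark in the gene differed among the members. Of the 5 genes, 3 matched an entry of the RefSeq promoter table of GRCm38.p6, and 2 of these, Kiz and Spsb4, had an interval over the 250 bases before the start in at least 1 library. Each is written 5′ to 3′ on the strand of the gene, with CG dinucleotides in capitals, the sites of CpG methylation that are dense at Polycomb targets.
Kiz, chr2:146855630-146855879, plus strand: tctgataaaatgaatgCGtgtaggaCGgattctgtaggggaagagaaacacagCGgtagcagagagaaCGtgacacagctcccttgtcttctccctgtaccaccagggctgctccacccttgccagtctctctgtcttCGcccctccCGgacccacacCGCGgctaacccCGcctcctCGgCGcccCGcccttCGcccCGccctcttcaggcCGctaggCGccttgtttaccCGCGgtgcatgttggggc
Spsb4, chr9:97018356-97018605, minus strand: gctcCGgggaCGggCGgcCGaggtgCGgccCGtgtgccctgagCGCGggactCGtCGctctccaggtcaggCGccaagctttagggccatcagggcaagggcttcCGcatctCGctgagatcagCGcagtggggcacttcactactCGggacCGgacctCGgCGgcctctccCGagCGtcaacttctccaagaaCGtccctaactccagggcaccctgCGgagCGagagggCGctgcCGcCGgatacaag
The Kiz promoter held 18 CG and 62.4% G or C, and an interval lay over it in 7 of 12 libraries. The Spsb4 promoter held 26 CG and 68.4% G or C, and an interval lay over it in 9. The third gene with an entry, Ak8, held 13 CG and 61.2% G or C, and no library had an interval there. Over the 32851 promoters of the table the median was 6 CG and 52.4% G or C, and 92.1% held at least 1 CG on the strand read. The 3 promoters stood between the 68.5th and the 90.4th percentile for CG number. Prkch and Rhbg have no entry, so whether their starts lay under the mark is not given. An interval covered the end of lower coordinate of Prkch and the end of higher coordinate of Rhbg in all 12 libraries.

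The broad interval counted at Rhbg also lies over the microRNA gene Mir9-1, a source of miR-9, which is abundant in the embryonic forebrain and promotes neuronal differentiation. Both mature arms are shown because the counts at Rhbg turn on whether the interval with Mir9-1 reaches Rhbg. They lie at chr3:88215613-88215635 and chr3:88215652-88215673 (GRCm38.p6, plus strand), 27.2 kb below the nearest end of Rhbg, and the seed, bases 2 to 8, is in capitals.
mmu-miR-9-5p: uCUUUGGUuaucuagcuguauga
mmu-miR-9-3p: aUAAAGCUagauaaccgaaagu
All 12 libraries had an interval over these arms.

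Depth, taken as the mean count per 200 bp window recovered from the deposited scores, was 0.117 to 0.698 in E12.5 WT, 0.212 to 0.272 in E12.5 KO, 0.0751 to 0.150 in E15.5 WT and 0.179 to 0.346 in E15.5 KO. All E15.5 KO libraries were thus deeper than every E15.5 WT library. Each list held 5008 to 13289 intervals with 573838 to 6846250 counts. Ezh2 had no interval in any library, so the lists hold no check of the deletion. The MGE regulators Nkx2-1, Lhx6, Lhx8, Dlx1 and Dlx2 each carried an interval in all 12 libraries. The pallial genes Pax6, Emx2 and Neurog2 and the posterior gene Hoxa5 did so too. The lists show where the mark lies and not which genes are expressed, so they do not identify the tissue. Scaled counts below are the counts of all intervals that reach a gene body or the 2.5 kb on either side, divided by the relative depth of the library. A gene with no interval in a library has no deposited count there, and its mark can lie below the calling threshold.

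**Figure D1:**
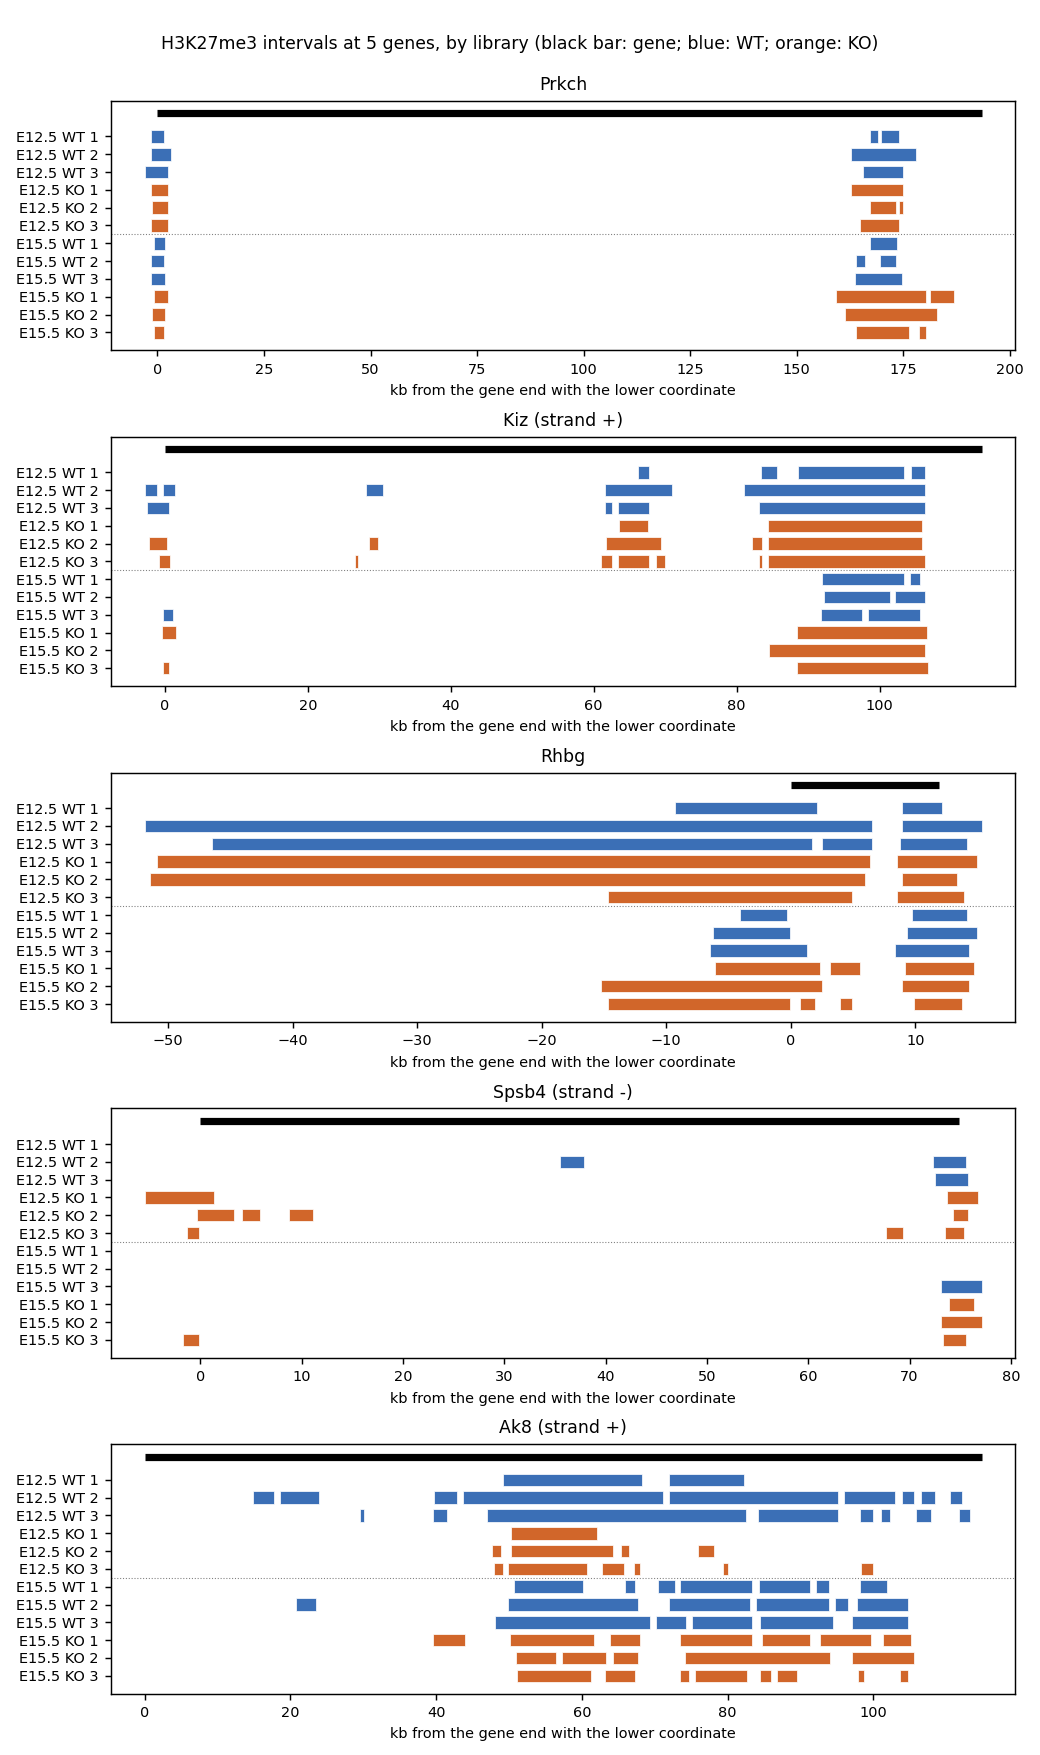
Intervals of H3K27me3 in each of the 12 libraries (rows), with position in kb from the gene end of lower coordinate on the x axis, the gene as a black bar, WT in blue and KO in orange. Inner loci widen in E15.5 KO at Prkch and shrink in E12.5 KO at Ak8, and Spsb4 has short intervals at its ends and, in 3 libraries, inside.

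Prkch, the kinase gene at chr12:73584796-73778185, carried the mark in 2 places, a narrow locus over its end of lower coordinate and an inner locus near its other end. Scaled counts over the gene at E12.5 were 139.6, 267.9 and 210.3 for WT and 148.2, 164.1 and 215.8 for KO. The E12.5 groups overlapped, with a log2 difference of -0.19 (SE 0.32, n = 3 and 3). At E15.5 they were 124.5, 116.5 and 136.9 in WT and 356.5, 307.1 and 242.9 in KO. Every E15.5 KO library lay above every E15.5 WT library, by 2.40-fold between the means and 1.25 on the log2 scale (SE 0.17). The order of the 4 means was E15.5 KO (302.2), E12.5 WT (205.9), E12.5 KO (176.0) and E15.5 WT (126.0). Neighbours in this order overlapped, except that the E12.5 KO libraries lay above all E15.5 WT libraries.

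The difference at Prkch lay in the inner locus, chr12:73744001-73771600, which is 159.2 to 186.8 kb from the gene end of lower coordinate and overlaps no other annotated gene. Its scaled counts were 51.0, 145.1 and 107.6 in E12.5 WT and 88.2, 110.7 and 109.0 in E12.5 KO. At E15.5, WT had 76.1, 62.3 and 57.2 and KO had 288.1, 248.1 and 191.8, a 3.72-fold ratio of means (log2 difference 1.89, SE 0.21). The E15.5 groups were also separate in width, with 6.2, 5.6 and 11.0 kb covered in WT against 26.8, 21.4 and 14.4 kb in KO. The count per covered kb overlapped, at 9.53 ± 3.80 in WT and 11.9 ± 1.3 in KO (SD, n = 3). Depth differed between these groups in the same direction, and its part in the width was not tested. The narrow locus, chr12:73581801-73588000, shared with the predicted protein-coding gene LOC115488016, had 60.8 ± 16.7 scaled counts in WT and 59.5 ± 8.6 in KO at E15.5 (SD, n = 3). In that place the E15.5 groups overlapped while the inner locus separated them.

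Kiz, the centrosomal gene at chr2:146855825-146970098 on the plus strand, carried most of its mark far from its start. An inner locus at chr2:146936801-146962600, 81.0 to 106.8 kb from the start, held 89.6 to 100% of the counts of the gene in each library. Scaled counts over the whole gene were 886.3, 1159.8 and 1071.1 in E12.5 WT and 977.3, 1994.3 and 1611.1 in E12.5 KO. These groups overlapped through KO replicate 1 (log2 difference 0.50, SE 0.33). At E15.5 the scaled counts were 200.6, 176.8 and 183.7 in WT and 452.6, 392.6 and 505.4 in KO. Every KO library then lay above every WT library, by 2.41-fold and 1.26 on the log2 scale (SE 0.12). Of the members, Kiz had the narrowest WT spread at E15.5 relative to its mean, 187.1 ± 12.3 (SD, n = 3).

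The stages stood further apart at Kiz than the genotypes. Stage goes with the tissue taken, whole MGE at E12.5 and reporter-positive MGE at E15.5, and these cannot be told apart. Scaled counts at E12.5 were 5.55 times those at E15.5 in WT and 3.39 times in KO, and the stages overlapped in neither genotype. The order of the 4 means was E12.5 KO (1527.6), E12.5 WT (1039.0), E15.5 KO (450.2) and E15.5 WT (187.1), and only the first pair overlapped. At E12.5 the width of the inner locus overlapped between genotypes, at 22.5 ± 3.3 kb in WT and 22.3 ± 0.7 kb in KO (SD, n = 3). Its density was 45.6, 41.5 and 43.4 scaled counts per covered kb in WT and 44.0, 79.3 and 66.6 in KO. At E15.5 both measures separated the genotypes: width was 13.1 ± 0.3 kb in WT and 19.5 ± 2.0 kb in KO, and density was 13.8 ± 1.6 and 22.7 ± 4.5 scaled counts per covered kb. Every E15.5 KO library was also deeper than every E15.5 WT library, and the part of depth in these values was not tested. A smaller inner locus at chr2:146916801-146926800 was called in all 6 E12.5 libraries, with 19.9 to 131.7 scaled counts and overlapping genotypes, and in no E15.5 library. The locus over the start, where the promoter above lies, held 0 to 38.7 scaled counts, and its genotypes overlapped at both stages.

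Rhbg, the ammonium transporter gene at chr3:88242874-88254739, is the shortest of the 5 at 11.9 kb and sits at the edge of a much wider domain. Scaled counts of all intervals reaching it were 252.6, 1690.7 and 1504.7 in E12.5 WT and 2507.0, 3906.5 and 672.0 in E12.5 KO. The spread within each group was larger than the difference between them (log2 difference 1.12, SE 1.17). The low library of each group, WT replicate 1 and KO replicate 3, is the one in which the interval with Mir9-1 ended before the window of Rhbg. In the other 4 E12.5 libraries that interval reached the gene, and in no E15.5 library did it. Without E12.5 WT replicate 1 the log2 difference was 0.23, without E12.5 KO replicate 2 it was 0.59, and it was 1.86 when E12.5 KO replicate 3 was left out. With only intervals that have at least 50% of their bases in the window it was -0.31. At E15.5 the scaled counts were 124.5, 134.6 and 260.0 in WT and 234.3, 302.3 and 270.0 in KO, which overlapped (log2 difference 0.71, SE 0.35).

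Taken whole, the domain that reaches Rhbg spans chr3:88191001-88249400, of which 11.2% lies inside the gene. It also overlaps the annotated genes AW047730, Gm3764, Mir3093, Mir9-1 and Gm25641. Its scaled counts at E12.5 were 1768.2, 1548.2 and 1410.1 in WT and 2448.2, 3807.3 and 2961.5 in KO. Counted in this way every KO library lay above every WT library, by 1.95-fold and 0.95 on the log2 scale (SE 0.21). Widths overlapped, at 54.7 ± 4.7 kb in WT and 56.0 ± 2.3 kb in KO, and density was 29.1 ± 5.8 and 54.9 ± 11.8 scaled counts per covered kb (SD, n = 3). At E15.5 the domain held 397.8, 407.9 and 908.3 scaled counts in WT and 820.8, 879.1 and 851.3 in KO, and WT replicate 3 lay above all KO libraries. Its E15.5 widths separated the genotypes, 34.4 ± 10.0 kb in WT and 47.8 ± 3.3 kb in KO (SD, n = 3). Depth differed between these groups in the same direction, and its part in the widths was not tested. The interval over Mir9-1 alone had 1472.5 ± 97.5 scaled counts in E12.5 WT and 2881.8 ± 802.0 in E12.5 KO (SD, n = 3). The second locus of Rhbg, chr3:88251201-88258200 over its end of higher coordinate, held 107.5 ± 39.8 and 91.5 ± 29.6 at E12.5 and 86.7 ± 19.7 and 71.2 ± 15.7 at E15.5, in WT and KO (SD, n = 3). The E12.5 separation in scaled counts was therefore that of the whole domain, on the side of the gene that faces Mir9-1. Counting the whole domain was added after seeing the data. Counts clipped to the window of Rhbg, in proportion to the bases inside it, overlapped between genotypes at both stages. Their log2 differences were 0.94 (SE 0.49) at E12.5 and 0.20 (SE 0.36) at E15.5.

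Spsb4, the ubiquitin ligase adaptor gene at chr9:96943482-97018355 on the minus strand, had the weakest mark of the 5. In E12.5 WT, replicate 1 had no interval and the others had 21.2 and 17.8 scaled counts. The E12.5 KO libraries had 60.0, 72.5 and 40.6, all above WT, and from 38 to 76 counts before scaling. At E15.5 a single WT library had an interval, with 22.5 scaled counts, and the KO libraries had 20.4, 18.1 and 25.6. Taking libraries without an interval as 0, KO exceeded WT by 44.7 mean scaled counts at the earlier stage and 13.8 at the later one. The 3 libraries without an interval were the 3 shallowest of the 12 (0.0751, 0.117 and 0.129), and the part of depth in these calls was not tested. No ratio is given, since 0 stands there for a value below the calling threshold.

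The loci of Spsb4 called in more than 1 library lay at its 2 ends. A locus over the start, chr9:97015801-97020600, which covers the CG-rich promoter shown above and overlaps Gm16010, was called in 9 libraries with 11.9 to 22.5 scaled counts. At E12.5 it held 11.9 and 17.8 in the WT libraries with an interval and 20.8, 18.1 and 20.3 in KO. The other locus, chr9:96938001-96946800 over the end of the gene, was called in 4 libraries, all KO. There the E12.5 KO libraries had 39.2, 21.9 and 10.7 scaled counts and E15.5 KO replicate 3 had 9.78. A further 4 short loci inside the gene were each called in a single library. E12.5 KO replicate 2 had 13.4 and 19.1 scaled counts in 2 of them, E12.5 KO replicate 3 had 9.62 in another, and E12.5 WT replicate 2 had 9.30 in the last, 35.5 to 37.9 kb from the gene end of lower coordinate.

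Ak8, the adenylate kinase gene at chr2:28698275-28813165 on the plus strand, is the member with less mark in KO at both stages. Scaled counts were 658.1, 1218.9 and 975.9 in E12.5 WT and 161.7, 319.7 and 269.2 in E12.5 KO. Every KO library lay below every WT library, at 0.26 times the WT mean and -1.94 on the log2 scale (SE 0.39). At E15.5 they were 709.1, 1115.1 and 1076.5 in WT and 570.5, 496.1 and 334.7 in KO. The groups were again separate, at 0.48 times the WT mean and -1.06 on the log2 scale (SE 0.31). The order of the means was E15.5 WT (966.9), E12.5 WT (951.0), E15.5 KO (467.1) and E12.5 KO (250.2). The WT groups overlapped with each other, and the KO groups were separate from WT and from each other.

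Nearly all of this mark lay in an inner locus, chr2:28737801-28803800, 39.5 to 105.5 kb from the start, with 96.4 to 100% of the counts in each library. Density was lower in KO without overlap at both stages, while widths were apart only at E12.5. Whether the stages differ was not tested. At E12.5 the locus covered 29.6, 62.4 and 51.6 kb in WT and 11.8, 18.6 and 18.2 kb in KO. Density was separate by less, 19.8 ± 2.1 scaled counts per covered kb in WT and 15.2 ± 1.8 in KO (SD, n = 3). At E15.5 the widths overlapped, at 44.8 ± 8.3 kb in WT and 39.8 ± 9.7 kb in KO, while density was 21.3 ± 1.5 in WT and 11.7 ± 0.3 in KO (SD, n = 3). Depth also differed between the libraries, with the E12.5 KO libraries inside the range of WT and the E15.5 KO libraries above it, and its part in the Ak8 values was not tested.

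**Figure D2:**
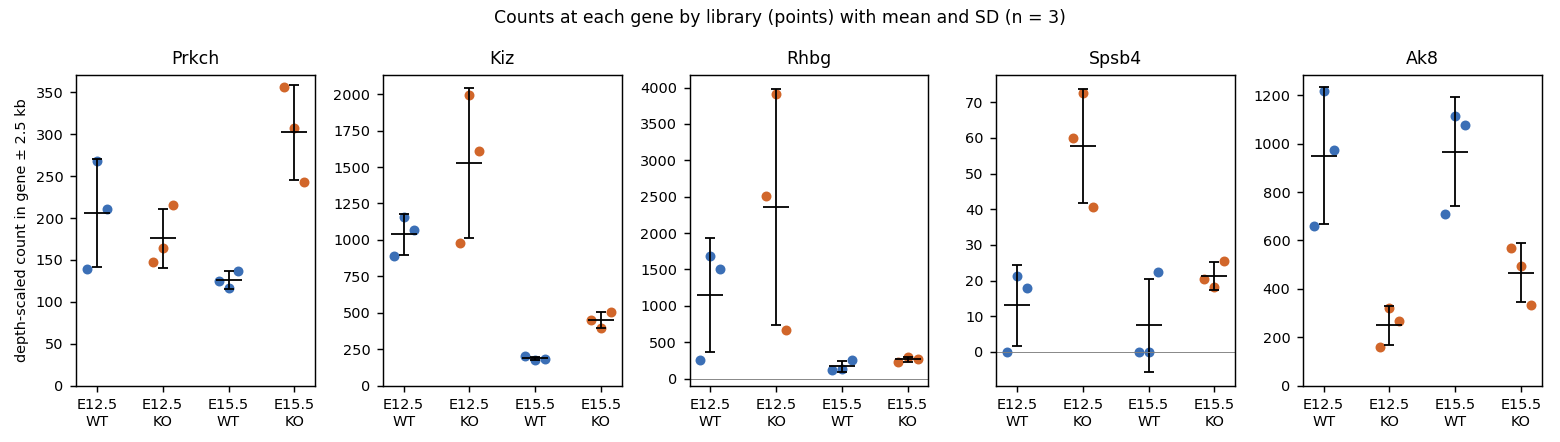
Depth-scaled counts in the gene body and 2.5 kb on either side (y axis, linear) for each library (points) with the mean and SD of 3 libraries, by stage and genotype; libraries without an interval are drawn at 0, and error bars below 0 are arithmetic only. E15.5 KO lies above E15.5 WT at Prkch and Kiz, KO lies below WT at Ak8 at both stages, and the E12.5 groups of Rhbg span 252.6 to 3906.5.

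**Figure D3:**
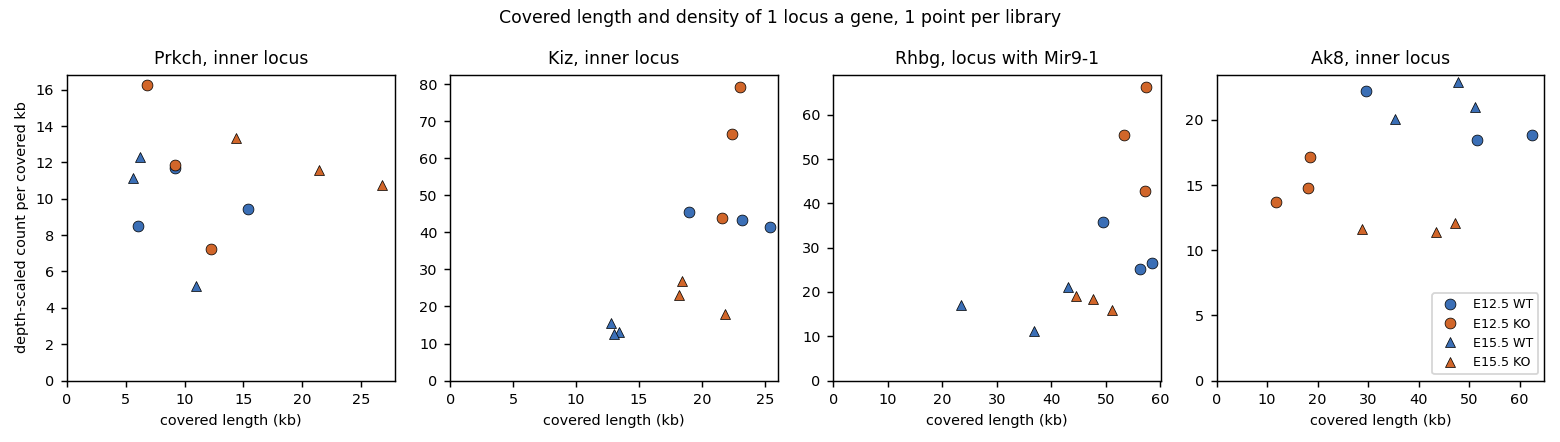
Covered length (x axis, kb) against depth-scaled count per covered kb (y axis) of 1 locus in each of 4 genes (the inner locus, or at Rhbg the domain with Mir9-1), 1 point per library, circles E12.5, triangles E15.5, WT blue, KO orange. E15.5 KO moves to greater width at Prkch, to greater width and density at Kiz and, at Ak8, to lower density. All E15.5 KO libraries were also deeper than E15.5 WT.

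Set per covered kb, the E12.5 WT level was highest at the inner locus of Kiz (43.5 ± 2.1 scaled counts per covered kb), then at the Rhbg domain (29.1 ± 5.8), the narrow locus of Prkch (24.1 ± 4.5), the inner locus of Ak8 (19.8 ± 2.1) and the inner locus of Prkch (9.87 ± 1.65; SD, n = 3). The narrow locus of Prkch overlapped Rhbg and Ak8, and no other pair overlapped. Prkch thus had both a dense and a sparse locus, with 104.7 and 101.2 mean scaled counts in E12.5 WT. In E15.5 WT the order was Ak8 (21.3 ± 1.5), narrow Prkch (20.2 ± 4.2), Rhbg (16.4 ± 5.0), Kiz (13.8 ± 1.6) and inner Prkch (9.53 ± 3.80), and the libraries of neighbours overlapped except those of Kiz and inner Prkch. Across stages, the values given next are scaled counts and not counts per covered kb. Kiz and the Rhbg domain were lower at E15.5 than at E12.5 in both genotypes, the latter by 2.76 times in WT and 3.61 times in KO. Ak8 in WT had a log2 difference between stages of 0.04 (SE 0.33), and in KO its scaled count at E15.5 was 1.87 times that at E12.5, with no overlap. Per covered kb, Ak8 in KO went the other way, with E15.5 at 0.77 times E12.5, also without overlap. Prkch went down in WT (log2 -0.66, SE 0.28) and up in KO (0.78, SE 0.23) from E12.5 to E15.5, without overlap of the libraries in either genotype. Per covered kb, the stages of Prkch overlapped in both genotypes. Stages and genotypes share the 12 libraries that chose the genes, so these values are likewise a description. Stage also cannot be told apart from the kind of tissue taken, whole or reporter-positive MGE.

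Against all genes, the level from which a difference is read was not the same at the 2 stages. Of the 3139 genes with an interval in all 6 E12.5 libraries, the median log2 difference of KO and WT was -0.59 (quartiles -0.84 and -0.32). Of 2694 genes at E15.5 it was 0.001 (quartiles -0.18 and 0.22). Prkch, Kiz, Rhbg and Ak8 were in both sets and Spsb4 was in neither. At E12.5 the 3 KO libraries lay above all WT libraries at 11 genes (0.35%) and below them at 1035 (33%). None of the 4 members was in the first set and Ak8 was in the second. At E15.5 KO lay above at 299 genes (11.1%), Prkch and Kiz among them, and below at 217 (8.05%), Ak8 among them. Since these contrasts chose the members, nothing is read from their counts against these shares, or from the percentiles that follow. At E12.5 Prkch stood at the 83.2nd percentile of all genes, Kiz at the 98.6th, Rhbg at the 99.8th and Ak8 at the 1.98th. At E15.5 the percentiles were 98.4 for Prkch, 98.5 for Kiz, 94.7 for Rhbg and 0.891 for Ak8. The E12.5 log2 difference of Prkch, which was below 0, thus lay above the median of all genes by 0.40.

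**Figure D4:**
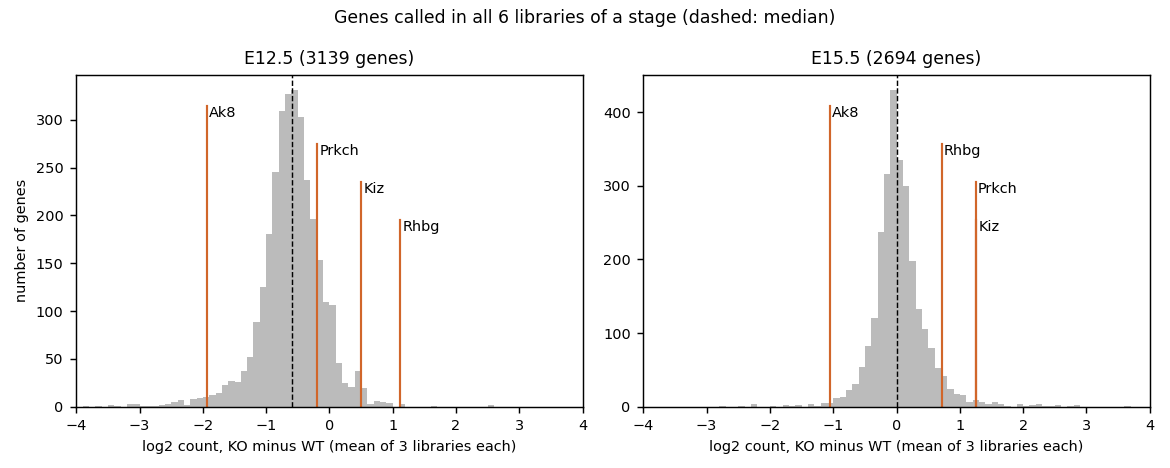
Number of genes (y axis) by log2 difference of KO and WT scaled counts (x axis, bins of 0.1) among genes with an interval in all 6 libraries of a stage; the dashed line is the median, 7 genes at E12.5 lie beyond the axis, and orange lines mark 4 of the chosen genes. The members were chosen by this difference, so their distance from the median is no result. Prkch at E12.5 lies nearest to it.

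Regions shared by all 6 libraries of a stage were tested with edgeR's quasi-likelihood test on counts, as a background for the members. At E12.5, 337 of 3243 regions (10.4%) were lower in KO and 11 (0.339%) were higher at a Benjamini-Hochberg adjusted p of 0.05. With TMM factors these became 143 and 94, and the median log2 change moved from -0.56 to -0.04. The E15.5 fit called 48 of 2781 regions (1.73%) lower and 88 (3.16%) higher. Members held 7 of the tested regions at each stage, and their values follow without p or call, because the genes were chosen on them. At E12.5 the Rhbg domain changed by 0.97 on the log2 scale (SE 0.24), and the inner region of Ak8 by -1.87 (SE 0.33). The inner region of Kiz was at 0.54 (SE 0.27) with depth scaling and at 1.06 (SE 0.19) with TMM factors. With depth scaling, the smaller inner region of Kiz was at 1.03 (SE 0.42) and the second region of Rhbg at -0.26 (SE 0.41). The narrow and inner regions of Prkch were at -0.52 (SE 0.42) and -0.01 (SE 0.41). At E15.5 the inner regions of Prkch and Kiz changed by 1.91 (SE 0.23) and 1.29 (SE 0.15). Ak8 held 2 regions, at -0.86 (SE 0.20) and -1.25 (SE 0.19). The tested part of the Rhbg domain was at 0.75 (SE 0.32). The narrow region of Prkch was at -0.07 (SE 0.29) and the second region of Rhbg at -0.32 (SE 0.28).

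With TMM factors the gene-level log2 differences at E12.5 were 0.33 at Prkch, 1.03 at Kiz, 1.65 at Rhbg and -1.41 at Ak8. Prkch changed sign between the scalings at E12.5, and the other genes kept theirs. At E15.5 the scalings differed little, with 1.23, 1.25, 0.70 and -1.07 for the same genes.

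**Figure D5:**
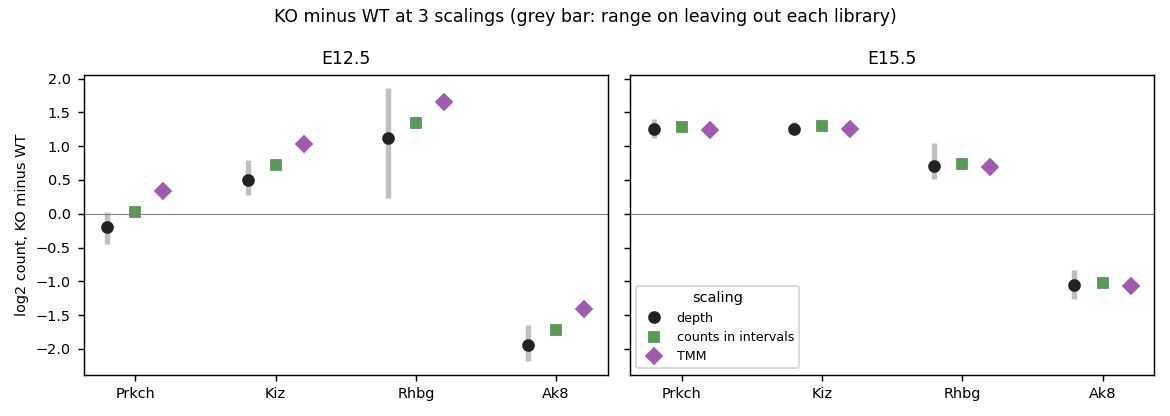
Log2 difference of KO and WT counts (y axis) at 4 genes under 3 scalings of the libraries (black, depth; green, counts in intervals; purple, TMM), with the range on leaving out each library as a grey bar. At E12.5 TMM raises every value, Prkch from -0.19 to 0.33, and at E15.5 the scalings lie close together.

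Paralogs and partners of the members were mostly unmarked or showed no called difference. Of 8 other protein kinase C genes, 2 had an interval in all 12 libraries, Prkcd and Prkcz, and 1 in none. Of 3 other SPRY and SOCS box genes, Spsb1 alone was called in all 12, and of 3 other Rh genes Rhcg and Rhd were. Of 8 other adenylate kinase genes Ak5 was called in all 12 and 5 in none, and the 5 centrosome genes listed with Kiz had no interval in any library. These other genes held 11 tested regions of 9 genes at E12.5, where 1 was lower and 0 were higher by edgeR with either scaling and by DESeq2. With depth scaling that is near the share of all regions that were lower (10.4%). With TMM factors and with DESeq2, 143 of all 3243 regions were lower. Of the 11 regions, 1 was lower at an unadjusted p under 0.05 by each method. In the other direction 0 were higher with depth scaling and 1 with TMM factors or DESeq2. At E15.5 these other genes held 6 regions of 6 genes, and 0 were called in either direction by edgeR or DESeq2, also without adjustment. The median log2 change of these regions was -0.49 at E12.5, against -0.56 over all regions, and 0.05 at E15.5, against -0.02. Spsb1 had 231.0 ± 24.0 scaled counts in E12.5 WT and 164.0 ± 31.6 in E12.5 KO (SD, n = 3), with the groups apart, as at 33% of gene windows, and its region was not called. The region called was that at Prkcd, another calcium-independent kinase of the family, at chr14:30623601-30627400. Scaled counts at Prkcd were 71.0 ± 7.0 in E12.5 WT and 25.4 ± 4.9 in E12.5 KO (SD, n = 3), with all 3 KO libraries below WT, again as at 33% of gene windows. Its region changed by -1.48 on the log2 scale (SE 0.42, edgeR adjusted p = 0.00943), by -0.95 with TMM factors (edgeR adjusted p = 0.0487) and by -0.89 with DESeq2 (adjusted p = 0.0434). Over the alternatives its edgeR or DESeq2 adjusted p ranged from 0.00276 to 0.145, and the threshold was missed on leaving out WT replicate 2 (0.0715), WT replicate 3 (0.089), KO replicate 1 (0.0803) or KO replicate 2 (0.077). It was also missed when regions needed a call in only 4 libraries (0.145). At E15.5 the Prkcd region changed by -0.09 (SE 0.34, edgeR adjusted p = 0.94), and whether the stages differ was not tested.

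The nearest protein-coding gene was looked up on either side of each member. Beside Kiz, Xrn2, an RNA exonuclease gene 42.7 kb away, was called in all 12 libraries with 824.2 ± 179.8 and 849.1 ± 262.5 scaled counts at E12.5 and 900.7 ± 43.3 and 925.0 ± 124.0 at E15.5, in WT and KO (SD, n = 3). Beyond it lie the homeobox genes Nkx2-4 and Nkx2-2, 113.2 and 206.4 kb from Kiz, whose genotypes overlapped at both stages. Nkx2-4 held 810.6 ± 167.4 in WT and 834.4 ± 245.0 in KO at E12.5. At E15.5 it held 900.7 ± 43.3 and 920.2 ± 126.7 (SD, n = 3). These are nearly the counts of Xrn2, so Xrn2 is not read as marked apart from Nkx2-4. On the other flank of Kiz the nearest protein-coding gene, Ralgapa2, is 343.6 kb away and was called in 8 libraries. Beside Ak8, Spaca9 overlaps its start region and had no interval, and Gtf3c4, 9.13 kb away, had one in 3 libraries. Beside Rhbg, Mef2d was called in 11 libraries and Tsacc in 5, none through an interval shared with Rhbg. Beside Spsb4, Pxylp1 was called in 7 libraries and Slc25a36 in none. Beside Prkch, Hif1a was called in 5 libraries, and the marked neighbour was LOC115488016, whose interval is that over the end of Prkch.

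Genes elsewhere followed the members across libraries. Likeness was Pearson's r of log2(scaled count + 1) over the 12 libraries among 4427 genes with an interval in at least 6, given as a description, since libraries share depth and stage. Closest to Prkch were Gsk3b (0.95), Kctd15 (0.95) and Notch3 (0.94), and to Kiz were Ets1 (0.98), Gas2l3 (0.96) and Sp9 (0.96). Closest to Rhbg were Ldb3 (0.93), Msra (0.89) and Dand5 (0.88), and to Spsb4 were Slc4a3 (0.97), Sox9 (0.97) and Kif1a (0.96). Libraries without an interval entered as 0, which stands for a value below the calling threshold. All r values of Spsb4 rest in part on such libraries. Closest to Ak8 were Cfap77 (0.99), Pcdh8 (0.97) and Vgll4 (0.96), and of these 15 genes only Cfap77, 142.3 kb from Ak8, and Sp9 lie on the chromosome of their member. Among the members themselves the highest r was 0.83, between Kiz and Rhbg, and the lowest -0.52, between Spsb4 and Ak8.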

How the data were processed

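H3K27me3 CUT&Tag intervals of 12 libraries (WT and KO at E12.5 and E15.5, 3 each) were used, grouped by genotype and stage in the labels. Each library has its own interval list, so lists were not pooled. Per the submitters' processing notes, the tools named are cutadapt, Bowtie2, SAMtools, Picard, deepTools and SICER and the build GRCm38 (mm10); their settings are not given in the sources used here. The count of each interval is whole and not normalized, as the authors deposited it. The score, also deposited by the authors, served to recover the depth (the Poisson mean per 200 bp window that gives the scores of intervals of 1 window) and to filter; that depth is proportional to reads is an assumption. Places outside the lists hold no deposited value. Starts were taken as counted from 0.

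Counts were divided by the relative depth (mean of 12 libraries 1). The log2 difference is that of the group means of log2 scaled counts, and its SE comes from the spread within groups. Genes were taken from a RefSeq table of GRCm38 without exons, so exon and intron positions are not given. Merged autosomal regions (at least 1 shared bp, called in all 6 libraries of a stage) were tested in edgeR 4.0.16 (quasi-likelihood, library sizes proportional to depth, Benjamini-Hochberg, threshold 0.05) in R 4.3.3, which was tested on simulated data. The labels number biological replicates without saying that they are separate litters, so p-values measure the spread between these samples. Replicate numbers were not used as pairs in the main fit, and whether they pair the libraries is not known. Alternatives were other scalings (TMM, counts in intervals, DESeq2 1.42.0), windows, overlaps, a score filter, the replicate block and leaving out each library; counting all intervals of the merged loci was added after seeing the data.

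The members and lists were chosen with earlier results of these data known. An item of the marker list is not reported here. Named beside the members are the nearest protein-coding genes, family genes called in all 12 libraries, and the 3 genes most alike in pattern. The genes near Kiz, Rhbg and Ak8 that lie beyond these were chosen after their values were seen. Figures were drawn with matplotlib 3.10.9 in Python 3.11.15.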

Additional observations from a re-analysis of the deposited data

How the results depend on the processing

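Of 150 alternative values of the 5 genes, 140 kept the sign and lay within 1 SD of the spread between libraries of the value given, 6 moved further and 4 changed sign. The 140 include the values with the replicate block, which equal the value given by construction. Prkch at E12.5, -0.19 on the log2 scale, was 0.030 with counts in intervals as library size, 0.33 with TMM factors and, on leaving out each library, -0.45 to 0.020, the latter without E12.5 WT replicate 2. Rhbg at E12.5 was -0.31 with intervals that have at least 50% of their bases in the window. The values that moved were Kiz at E12.5 with TMM (1.03), Kiz at E15.5 with a window of 10 kb (3.55), Rhbg at E15.5 with clipped counts (0.20) or the 50% rule (0.15), and Spsb4 (71.1 scaled counts) and Ak8 (-1.41) at E12.5 with TMM. The wider Kiz window takes in part of a separate block beside the gene in E15.5 KO, and for the others the cause was not tested.

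The E12.5 calls (337 lower, 11 higher) became 143 and 94 with TMM and 143 and 146 with DESeq2. With counts in intervals 56 were higher, and with regions called in at least 4 libraries 84 were lower and 0 higher by edgeR (18 higher at an unadjusted p under 0.05; DESeq2 was not run on these). At E15.5 (48 and 88), 85 were lower with TMM and 79 with DESeq2, 134 were higher with counts in intervals, and with at least 4 libraries 8 were lower and 39 higher. Leaving out each library gave 96 to 1542 lower and 1 to 25 higher at E12.5, and 19 to 76 lower and 47 to 88 higher at E15.5. The E12.5 lower count moved by over 1.5 times on dropping WT replicate 2 (106), WT replicate 3 (96), KO replicate 2 (131) or KO replicate 3 (1542). The higher count did so on dropping WT replicate 2 (6), WT replicate 3 (1) or KO replicate 1 (25), 2 (3) or 3 (21). At E15.5 the lower count did so on dropping WT replicate 1 (76), 2 (25) or 3 (22) or KO replicate 1 (28) or 3 (19), and the higher count on dropping WT replicate 2 (53) or KO replicate 1 (47). The Prkcd region has no value under the stricter score filter.

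Same-numbered libraries correlated in their deviations at 0.22, 0.03 and 0.11 at E12.5 and -0.25, -0.09 and -0.14 at E15.5 over 2368 regions. Deviations within such small groups are constrained, so these values cannot decide whether the numbers pair the libraries. With the replicate number as a block the E12.5 fit called 621 lower and 19 higher and the E15.5 fit 41 and 74. Each gene's log2 difference is unchanged by construction. At Spsb4, counts of 13 to 76 per library limit the precision.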

Other observations

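Near Ak8, Cfap77, a gene of cilia and flagella named from its likeness to Ak8 and therefore given without a test, had scaled counts of 3714.6 ± 675.9 in E12.5 WT and 1776.9 ± 458.4 in E12.5 KO, and 3686.7 ± 462.2 and 2505.1 ± 335.8 at E15.5 (SD, n = 3). All KO libraries lay below all WT libraries at both stages, as they did at 33% and 8.05% of genes. Between Ak8 and Cfap77, the homeobox gene Barhl1, 94.5 kb from Ak8, carried 7383.1 ± 1430.2 and 6174.6 ± 718.1 at E12.5 and 7919.5 ± 649.6 and 7107.6 ± 685.8 at E15.5, in WT and KO (SD, n = 3), and its genotypes overlapped at both stages. The E12.5 values depend on the scaling. In the edgeR fit of shared regions, the larger Cfap77 region was at -1.07 (SE 0.23) with depth scaling. With TMM factors it was at -0.54 (SE 0.19), and the Barhl1 region turned from -0.26 to 0.25. At E15.5 the larger Cfap77 region was at -0.57 and -0.58.

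Beside the start of Kiz, a separate block over the RNA gene Gm14114, 15.3 kb away and chosen after its values were seen, was called in all 12 libraries. It held 1615.3, 1497.2 and 1499.8 scaled counts in E12.5 WT and 1534.5, 2317.8 and 1979.7 in E12.5 KO, which overlapped. Its E12.5 region was at 0.34 with depth scaling and at 0.86 with TMM factors. At E15.5 it held 1407.8, 1227.6 and 1189.2 in WT and 1686.6, 2079.7 and 1865.9 in KO, with every KO library above WT (log2 difference 0.56, SE 0.11). At that stage all KO libraries lay above all WT libraries at 11.1% of protein-coding gene windows. The direction at Gm14114 is that of Kiz at E15.5, at a smaller size, and a link between them was not tested.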
